A study of Homo sapiens with 6 samples.

Results

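The genes described here encode proteins at 4 successive levels of the RAS to ERK cascade, namely the RAS GTPases HRAS and NRAS, the RAF kinases ARAF and BRAF, the MEK kinases MAP2K1 (MEK1) and MAP2K2 (MEK2), and the ERK kinase MAPK3 (ERK1). They were taken by name from the deposited count table, which held 7 of them among 58288 gene identifiers. All 7 were among the 14415 genes that passed the filter on low counts and were tested. The cells were T24, an established human bladder cancer cell line known for an activated HRAS, and counts per gene do not separate alleles. Groups were T24 cells given the control siRNA (siControl in the labels, NC here), siRNA1 (si-circ235-1) or siRNA2 (si-circ235-2), with 2 biological replicates each and 6 libraries in all. Both siRNAs were designed against the looping site of circ235, a circular RNA from the CCNY gene, and the comparisons ask how mRNA levels differ after its knockdown. Poly(A) enrichment does not retain a circular RNA, so the counts give no value for circ235 itself and do not check the knockdown.

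In cells, RAS proteins are membrane-bound switches that are active when bound to GTP. Active RAS recruits RAF kinases to the membrane, RAF phosphorylates MEK, and MEK phosphorylates ERK, which acts on proteins in the cytoplasm and on transcription factors in the nucleus. The cascade is driven largely by protein activity and phosphorylation, neither of which was measured here. In bladder cancer it is known for activating changes in RAS genes and in the growth factor receptors above them.

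HRAS and NRAS encode closely related proteins in very different bases, and this difference in base composition is set beside the results below. Their coding sequences are 567 bases each, of which 73.0% are identical when aligned codon by codon. Of the 153 differing bases, 111 lie at the third codon position, and 94 codons differ while encoding the same residue. G or C stood at 81.5% of the third codon positions in HRAS and at 46.0% in NRAS. The longest run of bases that the coding sequences share is 14, and no 50-nucleotide word of the longest HRAS or NRAS transcript occurred in a transcript of another gene.

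In total counts, NC had 17152017 and 15855386, si-circ235-1 had 15588108 and 19912893, and si-circ235-2 had 15373992 and 17562690. The spread between replicates exceeded counting noise, the chi-square divided by its degrees of freedom being 35.4 for NC, 27.7 for si-circ235-1 and 23.5 for si-circ235-2. Nothing in the labels says how the biological replicates were separated, so p-values measure the spread between these libraries, which may be partly technical. Levels are CPM (counts scaled to a common library size) after TMM normalization, which rescales each library for its composition. Differences are log2 fold changes from edgeR's quasi-likelihood test, given with their standard error (SE). Values given with the trend removed come from an alternative fit in which a smooth trend of counts over length and GC content of the transcripts was taken out of each library. A gene was called when its Benjamini-Hochberg adjusted p over all 14415 genes was under 0.05.

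Epithelial keratins were abundant, with KRT7 at 619 to 1256 CPM, KRT8 at 1109 to 2161 CPM and KRT18 at 939 to 2307 CPM across the 6 libraries. KRT7 fell by 0.76 (log2) with si-circ235-2 (adjusted p = 0.0260 from edgeR), from 1256 and 940.5 CPM in NC to 681 and 619 CPM, and was at -0.03 with the trend removed. Of the 4 epithelial markers tested, KRT7 among them, edgeR called 0 lower there without TMM factors. DESeq2 and the replicate block each called 2 of the 4 lower. The epithelial adhesion gene EPCAM was low, at 1.28 to 2.93 CPM, and KRT19 had at most 0.0611 CPM. Defining markers of differentiated urothelium were at or near 0, since UPK3A and KRT20 had 0 counts in all 6 libraries and UPK1A, UPK1B and UPK2 reached at most 0.984 CPM. PPARG, a nuclear receptor of the urothelial program, had 23.2 and 22.6 CPM in NC, 39.5 and 45.9 CPM under si-circ235-1, and 49.2 and 51.1 CPM under si-circ235-2, and rose by 0.90 (adjusted p = 0.0264) and 1.13 (adjusted p = 0.00310). Without TMM factors, 0 of the 3 urothelial markers tested, PPARG among them, were called under si-circ235-1. GATA3 stayed at or below 1.12 CPM. The level of FOXA1, also chosen beforehand as a urothelial marker, is not given here. The part of these marker changes in the results below was not tested. Of the 8 markers of leukocytes, endothelium, fibroblasts and liver, 4 (PTPRC, CD3E, COL3A1 and ALB) had 0 counts in every library, and the most abundant, COL1A1, reached 1.47 CPM. The libraries thus held keratin-rich cells with little expression of uroplakin genes, and the markers of other cell types were at or near 0.

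At the RAS level, NRAS was higher under both siRNAs, and HRAS was lower under si-circ235-2 but not under si-circ235-1. NRAS, at the plasma membrane a switch upstream of RAF like HRAS, had 82.0 and 101 CPM in NC, 173 and 177 CPM under si-circ235-1, and 185 and 241 CPM under si-circ235-2. Each of the 4 siRNA libraries was above both NC libraries, and the si-circ235-1 libraries lay just below those of si-circ235-2. NRAS rose by a log2 fold change of 0.93 under si-circ235-1 (SE 0.20, adjusted p = 0.0271), or 1.91-fold, and by 1.21 under si-circ235-2 (SE 0.20, adjusted p = 0.00296), or 2.32-fold.

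The call for NRAS under si-circ235-1 was close to the threshold. Its adjusted p from edgeR was 0.138 and 0.0616 without replicates 1 and 2 of NC, 0.0764 and 0.193 without replicates 1 and 2 of si-circ235-1, and 0.0579 without TMM factors, with log2 fold changes of 0.78 to 1.13. Under si-circ235-2 the call remained when any of the 6 libraries was left out. NRAS (ENSG00000213281.4) is on chromosome 1 (minus strand, 114704469 to 114716894), and has 1 annotated transcript.

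HRAS had 290.4 and 166 CPM in NC, 255 and 352 CPM under si-circ235-1, and 112 and 87.7 CPM under si-circ235-2. The NC libraries lay far apart and overlapped those of si-circ235-1, whereas both si-circ235-2 libraries were below every other library. HRAS fell by 1.19 (log2) under si-circ235-2 (SE 0.28, adjusted p = 0.00948). It was no longer called there with the trend removed (-0.20, adjusted p = 0.427) or without NC replicate 1 (-0.74, adjusted p = 0.111). Its value under si-circ235-1, 0.41 (SE 0.27, adjusted p = 0.383), did not pass the threshold. In the direct comparison HRAS was the lower with si-circ235-2, at a log2 fold change of -1.61 (SE 0.28, adjusted p = 0.00173), while NRAS differed between the siRNAs by 0.28 (SE 0.20, adjusted p = 0.277). Without TMM factors the latter difference was 0.63 and passed the threshold (adjusted p = 0.0436 from edgeR). HRAS (ENSG00000174775.16) is on chromosome 11 (minus strand, 532242 to 537287).

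**Figure D1:**
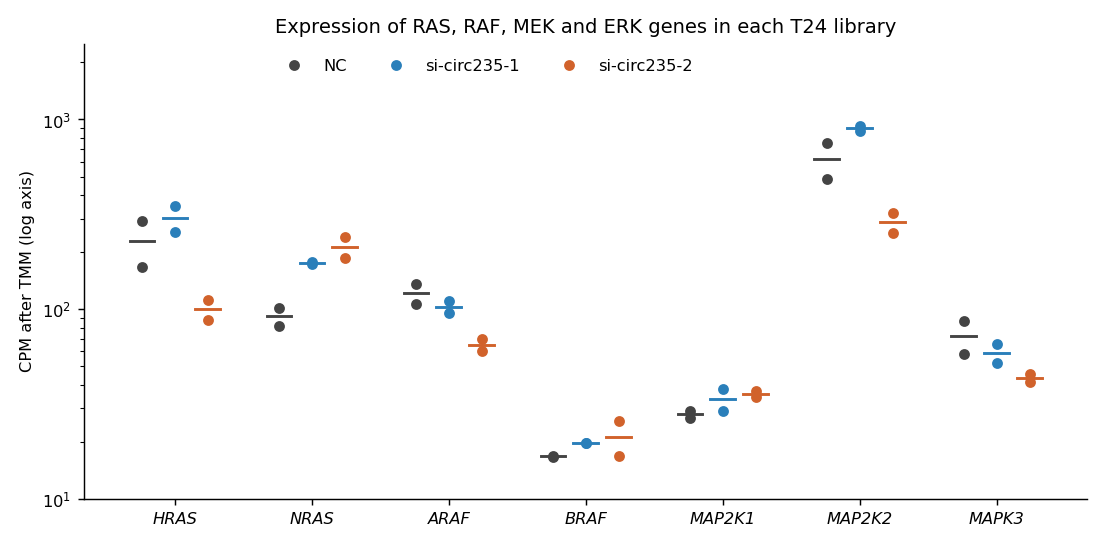
Level of each gene in CPM after TMM normalization (log axis) in each of the 6 libraries; points are libraries and short lines the means of 2 replicates. NRAS rises from a mean of 91.7 CPM in NC to 175 and 213 CPM under the siRNAs, while HRAS and MAP2K2 are lowest under si-circ235-2, at means of 99.8 and 288 CPM.

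At the RAF level, ARAF was lower under si-circ235-2 and BRAF was not called in any comparison. ARAF, the RAF family member with the weakest kinase activity of its own, had 136 and 107 CPM in NC, 110.5 and 95.2 CPM under si-circ235-1, and 69.9 and 59.9 CPM under si-circ235-2. The si-circ235-2 libraries were below all others, and the NC and si-circ235-1 libraries overlapped. ARAF fell by 0.90 (log2) under si-circ235-2 (SE 0.20, adjusted p = 0.00726; 0.0766 without NC replicate 1), and its value under si-circ235-1 was -0.24 (SE 0.19, adjusted p = 0.486). Between the siRNAs it was lower under si-circ235-2 by a log2 fold change of -0.66 (SE 0.20, adjusted p = 0.0205). That last call did not survive the loss of si-circ235-1 replicate 1 (adjusted p = 0.109), si-circ235-1 replicate 2 (0.0525), si-circ235-2 replicate 2 (0.134) or the TMM factors (0.164). ARAF (ENSG00000078061.12) is on chromosome X (plus strand, 47561100 to 47571920).

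BRAF, the RAF member with the strongest kinase activity, had 16.9 and 16.6 CPM in NC, 19.7 CPM in both si-circ235-1 libraries, and 16.8 and 25.7 CPM under si-circ235-2. The si-circ235-2 replicates lay far apart, from the level of the NC libraries to above every other library. The log2 fold changes of BRAF were 0.23 under si-circ235-1 (SE 0.25, adjusted p = 0.608) and 0.34 under si-circ235-2 (SE 0.25, adjusted p = 0.322), and neither passed the threshold with 2 libraries a group. With the trend removed the value under si-circ235-2 was -0.16. BRAF (ENSG00000157764.12) is on chromosome 7 (minus strand, 140719327 to 140924928). Its exons overlap those of NDUFB2, a respiratory chain gene on the opposite strand, over 1239 nucleotides. NDUFB2 had 1602 and 1079 counts in NC, 1377 and 2673 under si-circ235-1, and 744 and 760 under si-circ235-2, against 258 to 538 counts for BRAF. Without strand information, reads of the overlap cannot be assigned to either gene, and 14.4% of the 50-nucleotide words of the longest BRAF transcript occurred in another gene.

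At the MEK level, the genes did not move alike. MAP2K2 had 753 and 487 CPM in NC, 873 and 922 CPM under si-circ235-1, and 323 and 254 CPM under si-circ235-2. The si-circ235-1 libraries were above both NC libraries and the si-circ235-2 libraries were below them. MAP2K2 fell by 1.11 (log2) under si-circ235-2 (SE 0.25, adjusted p = 0.00831; 0.0927 without NC replicate 1), or 2.15-fold. Its value under si-circ235-1 was 0.53 (SE 0.25, adjusted p = 0.202), short of the threshold. The difference between the siRNAs, with a log2 fold change of -1.64 (SE 0.25, adjusted p = 0.00105), was called and was 3.11-fold. MAP2K2 (ENSG00000126934.13) is on chromosome 19 (minus strand, 4090321 to 4124129).

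MAP2K1, whose product phosphorylates ERK as that of MAP2K2 does, had 26.8 and 29.2 CPM in NC, 29.1 and 37.9 CPM under si-circ235-1, and 37.2 and 34.3 CPM under si-circ235-2. The si-circ235-2 libraries were above both NC libraries, by less than the distance between the si-circ235-1 libraries. The log2 fold changes were 0.26 under si-circ235-1 (SE 0.21, adjusted p = 0.479) and 0.35 under si-circ235-2 (SE 0.21, adjusted p = 0.223). MAP2K1 (ENSG00000169032.9) is on chromosome 15 (plus strand, 66386817 to 66492312). Its exons overlap those of SNAPC5 on the opposite strand over 216 nucleotides and those of the antisense gene AC116913.1 over 432 nucleotides. SNAPC5 had 162 to 290 counts and AC116913.1 had 3 to 8, against 409 to 717 for MAP2K1.

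MAPK3, an ERK that phosphorylates nuclear and cytoplasmic targets, was lower under si-circ235-2. It had 87.0 and 58.2 CPM in NC, 65.5 and 52.2 CPM under si-circ235-1, and 45.8 and 41.3 CPM under si-circ235-2. The si-circ235-2 libraries were below all others, and the NC libraries overlapped those of si-circ235-1. MAPK3 fell by 0.74 (log2) under si-circ235-2 (SE 0.23, adjusted p = 0.0306). The call did not hold without TMM factors (log2 fold change -0.46, adjusted p = 0.121), with the length and GC trend removed (-0.25, adjusted p = 0.241), without NC replicate 1 (-0.42, adjusted p = 0.294) or without si-circ235-2 replicate 2 (-0.66, adjusted p = 0.100). Under si-circ235-1 the value was -0.30 (SE 0.23, adjusted p = 0.440), and between the siRNAs it was -0.43 (SE 0.23, adjusted p = 0.150). MAPK3 (ENSG00000102882.11) is on chromosome 16 (minus strand, 30114105 to 30123506).

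Counted together, 1 of the 7 genes was called under si-circ235-1, and it was higher. Over all genes tested in that comparison 5.88% were called, 2.24% higher and 3.64% lower. Under si-circ235-2, 5 of the 7 were called, NRAS higher and HRAS, ARAF, MAP2K2 and MAPK3 lower. There the background was 31.4% of all genes tested, 15.7% higher and 15.7% lower. Between the siRNAs, 3 of the 7 (HRAS, ARAF and MAP2K2) were called, all lower under si-circ235-2, against 39.7% of all genes, 21.1% higher and 18.6% lower. The comparisons of the siRNAs with NC share the NC libraries. The median log2 fold change of the 7 genes was 0.26, -0.74 and -0.43 in these comparisons, beside -0.03, -0.00 and 0.04 over all genes tested. Libraries of the groups did not overlap for 3 of the 7 genes under si-circ235-1, for 6 under si-circ235-2 and for 5 between the siRNAs, where the shares of all genes tested were 55.0%, 71.4% and 72.1%.

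The calls under si-circ235-2 depended on NC replicate 1. Without NC replicate 1, which had the highest level of HRAS, ARAF, MAP2K2 and MAPK3 among the NC and si-circ235-2 libraries, only NRAS of the 5 remained called (adjusted p = 0.0421 from edgeR). HRAS then had a log2 fold change of -0.74 (adjusted p = 0.111), ARAF -0.72 (0.0766), MAP2K2 -0.76 (0.0927) and MAPK3 -0.42 (0.294). Over all genes the calls went from 4530 to 769 without that library. TMM factors shift all genes of a comparison by nearly the same amount. Without TMM factors the median of all genes moved to -0.11 under si-circ235-1 and to 0.25 under si-circ235-2, and the split of calls became 179 higher and 529 lower (from 323 and 524) and 3173 higher and 1294 lower (from 2270 and 2260). Without TMM factors the log2 fold changes under si-circ235-2 were 1.47 for NRAS, -0.91 for HRAS, -0.64 for ARAF, -0.83 for MAP2K2 and -0.46 for MAPK3. NRAS under si-circ235-1 and MAPK3 under si-circ235-2 were then not called, which left 0 and 4 of the 7.

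With both siRNAs taken as 1 group of 4 libraries against NC, edgeR called 0.0% of all genes and 0 of the 7. At an unadjusted p under 0.05 there were 1379 genes, 1 of them among the 7, and DESeq2 called 158 genes, among them NRAS (log2 fold change 1.08, adjusted p = 0.00746 from DESeq2). The edgeR value for NRAS was 1.08 (SE 0.26, adjusted p = 0.467, unadjusted p = 0.00360), and its siRNA libraries were all above NC, which held in 1 direction or the other for 22.8% of all genes. HRAS and MAP2K2 had pooled values of -0.18 and -0.06 each with an SE of 0.57, as the siRNAs gave opposite signs. ARAF and MAPK3 had -0.53 and -0.50, and BRAF and MAP2K1 had 0.29 and 0.31.

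**Figure D2:**
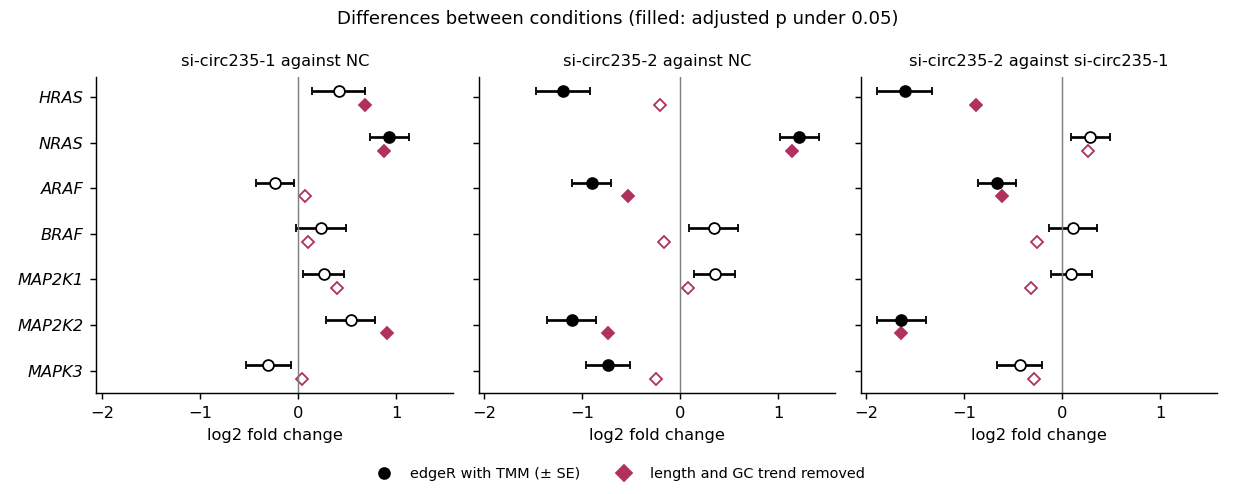
Log2 fold change of each gene in the 3 comparisons of conditions; circles with bars are edgeR values with TMM ± SE, and diamonds the values with the length and GC trend removed; filled symbols have an adjusted p under 0.05. NRAS keeps values near 0.9 to 1.2 against NC under both fits, and HRAS under si-circ235-2 moves from -1.19 to -0.20.

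Levels of different genes are compared here as CPM per kilobase of the longest annotated transcript. In NC, MAP2K2 had 212 ± 64.2 CPM per kb (SD, n = 2), HRAS 185 ± 71.4, ARAF 48.4 ± 8.28, MAPK3 28.3 ± 7.95, NRAS 20.6 ± 3.09, MAP2K1 8.21 ± 0.482 and BRAF 1.75 ± 0.0222. The NC libraries of MAP2K2 and HRAS overlapped in range, as did those of MAPK3 and NRAS, whereas the other neighbours in this order did not. Within a library, MAP2K2 was above HRAS in all 6, and MAPK3 was above NRAS in only 1, a library of NC. Under si-circ235-1 the order was MAP2K2 (307 ± 11.9), HRAS (246 ± 55.5), ARAF (41.1 ± 4.30), NRAS (39.3 ± 0.595), MAPK3 (22.9 ± 3.64), MAP2K1 (9.82 ± 1.83) and BRAF (2.06 ± 0.0015), with ARAF and NRAS overlapping. Under si-circ235-2 NRAS came before ARAF, as the order was MAP2K2 (98.5 ± 16.7), HRAS (80.9 ± 13.9), NRAS (47.8 ± 8.80), ARAF (25.9 ± 2.83), MAPK3 (17.0 ± 1.24), MAP2K1 (10.5 ± 0.601) and BRAF (2.22 ± 0.661), with MAP2K2 and HRAS overlapping. The order of neighbours depends on the length used. With the union of exons HRAS (123) stood above MAP2K2 (118) and NRAS (20.6) above MAPK3 (19.8) in NC, and NRAS (39.3) was already above ARAF (29.1) under si-circ235-1. With the shortest coding transcript ARAF (51.1) stayed above NRAS (47.8) under si-circ235-2. Coding lengths widened other gaps. In NC, MAP2K2 had 358 and HRAS 185 with the longest coding transcript, and 422 and 255 with the shortest. With the shortest, MAPK3 (72.8) was also far above NRAS (20.6) in NC, and MAPK3 (59.0) was above NRAS (39.3) under si-circ235-1. In bulk RNA, fewer cells expressing a gene and less of its RNA per cell cannot be told apart.

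The balance between HRAS and NRAS was lowest under si-circ235-2. The ratio of HRAS to NRAS, on the scale of CPM per kb, was 12.8 and 5.90 in NC, 5.32 and 7.18 under si-circ235-1, and 2.18 and 1.32 under si-circ235-2. The NC and si-circ235-1 libraries overlapped, and both si-circ235-2 libraries were below them. In reads alone, without a length, HRAS had 3.54 and 1.64 reads for each read of NRAS in NC, and 0.604 and 0.364 under si-circ235-2, so that NRAS reads then outnumbered those of HRAS. An exact two-sided permutation test of 2 libraries against 2 cannot give a p below 0.333, so these ratios are given as values.

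For the RAF pair, the ratio of ARAF to BRAF was 30.7 and 24.5 in NC, 21.4 and 18.5 under si-circ235-1, and 16.0 and 8.91 under si-circ235-2. The 3 conditions did not overlap and fell in that order. With the trend removed the log2 change of this ratio against NC went from -0.47 to -0.02 under si-circ235-1 and from -1.24 to -0.37 under si-circ235-2. For the MEK pair, MAP2K2 to MAP2K1 was 32.7 and 19.5 in NC, 35.0 and 28.4 under si-circ235-1, and 10.1 and 8.62 under si-circ235-2. Here NC and si-circ235-1 overlapped and si-circ235-2 was below both. In each pair the gene richer in G and C (HRAS, ARAF and MAP2K2) was lower relative to its paralog in both si-circ235-2 libraries than in either NC library. With the trend removed the change against NC under si-circ235-2 was -1.34 in place of -2.41 (log2) for HRAS to NRAS and -0.82 in place of -1.46 for MAP2K2 to MAP2K1. The size of a ratio depends on the transcript length used, and with the union of exons that of ARAF to BRAF in NC was 47.9 in place of 27.6, while the order of the conditions is the same under any length.

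**Figure D3:**
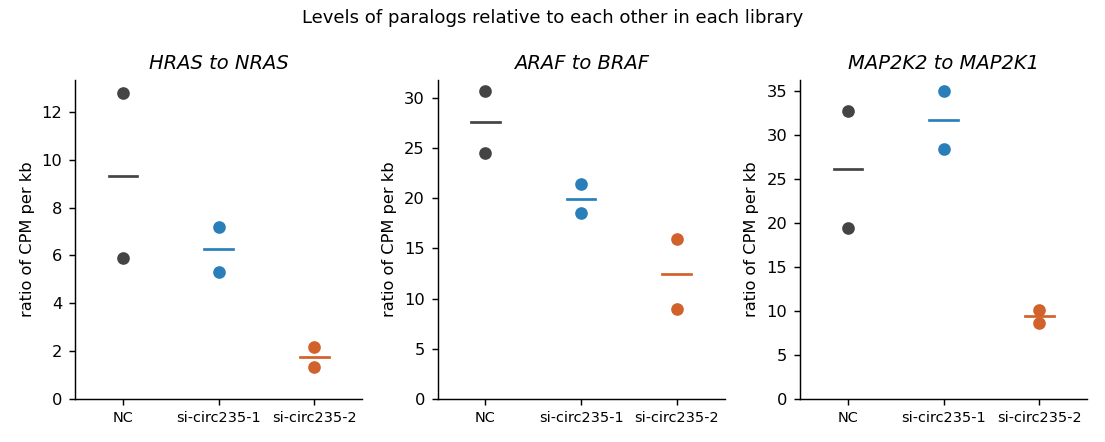
Ratio of levels, in CPM per kb of the longest transcript, of HRAS to NRAS, ARAF to BRAF and MAP2K2 to MAP2K1 in each library; points are libraries and lines the means of 2 replicates. All 3 ratios are lowest under si-circ235-2, with means of 1.75, 12.4 and 9.37.

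Under si-circ235-2, the log2 fold changes of the 7 genes from NC ran largely in the reverse order of the GC content of their transcripts. The correlation was nearer 0 under si-circ235-1, a difference that was not tested. Spearman's correlation of log2 fold change with GC content across genes, which are not independent replicates and share their libraries, was -0.29 for the 7 genes under si-circ235-1, -0.86 under si-circ235-2 and -0.82 between the siRNAs. Over 14386 genes it was -0.26, -0.22 and -0.03. The GC content of the longest transcript was 65.8% for HRAS, 61.4% for MAPK3, 60.9% for MAP2K2, 58.9% for ARAF, 50.4% for MAP2K1, 40.0% for BRAF and 38.4% for NRAS. The 4 genes lower under si-circ235-2 all lie in the quintile of tested genes with the highest GC content, from 58.2% to 74.5%. In that quintile of 2877 genes the median log2 fold change was -0.51 under si-circ235-2, with 35.7% called lower and 4.41% called higher. Under si-circ235-1 its median was -0.26, with 8.24% lower and 0.938% higher, and HRAS (0.41) and MAP2K2 (0.53) lay above it. NRAS and BRAF lie in the quintile with the lowest GC content, 26.9% to 41.0%, whose medians were 0.14 under si-circ235-1 and -0.03 under si-circ235-2. MAP2K1 lies in the middle quintile, whose medians were -0.01 and 0.25.

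**Figure D4:**
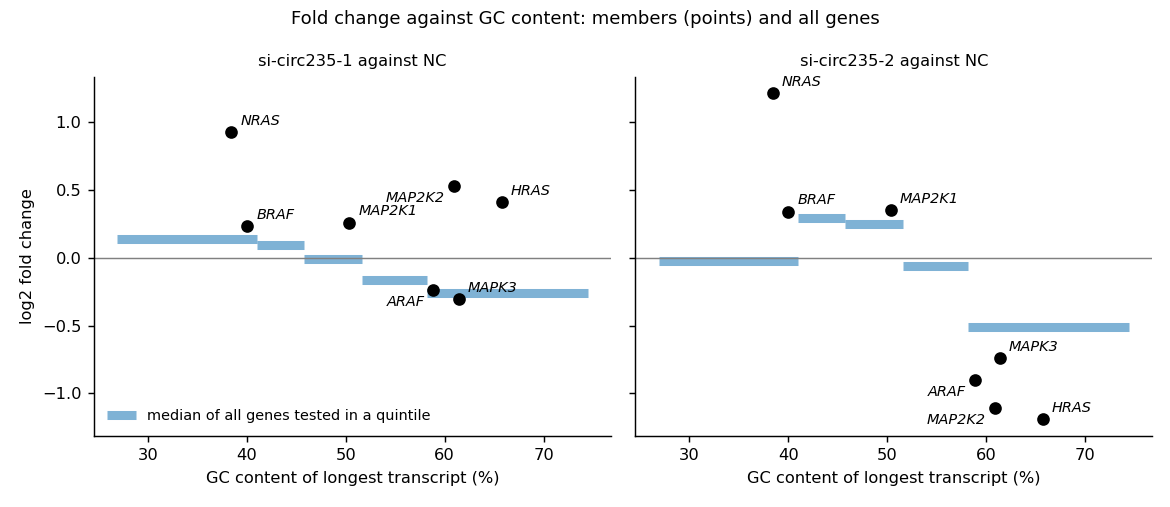
Log2 fold change against NC plotted over the GC content of the longest transcript for the 7 genes (points), with the median of all tested genes in each quintile of GC content (bars), for si-circ235-1 (left) and si-circ235-2 (right). HRAS, ARAF, MAP2K2 and MAPK3 lie below the median of -0.51 of their quintile under si-circ235-2, and NRAS lies far above the medians of its own quintile under both siRNAs.

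The members divided once a smooth trend over the length and GC content of transcripts was taken out of each library. This fit also takes out any difference between conditions that runs with length or GC content. Whether the trend is technical or part of the response to the siRNAs was not tested. NRAS kept its values, 0.87 under si-circ235-1 (adjusted p = 0.00571) and 1.14 under si-circ235-2 (adjusted p = 0.00309), and was called in both. Under si-circ235-2, ARAF (-0.54, adjusted p = 0.0153) and MAP2K2 (-0.74, adjusted p = 0.0193) were still called lower. HRAS (-0.20, adjusted p = 0.427) and MAPK3 (-0.25, adjusted p = 0.241) were not. Under si-circ235-1, HRAS (0.68, adjusted p = 0.0369) and MAP2K2 (0.90, adjusted p = 0.0158) were now called higher, so that 3 of the 7 were called in that comparison. Not all of these 3 remained called once the replicate block was added to this fit. Between the siRNAs, HRAS (-0.88, adjusted p = 0.00459), ARAF (-0.61, adjusted p = 0.00472) and MAP2K2 (-1.64, adjusted p = 0.000629) were called lower under si-circ235-2, as they were with TMM alone. All of these are edgeR values, and with this trend removed the split over all genes was 1189 higher and 780 lower under si-circ235-1 and 1615 higher and 2113 lower under si-circ235-2.

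The genes whose levels over the 6 libraries were most like those of HRAS, by Pearson's correlation of log2 CPM among 9960 protein-coding genes, were DTYMK (0.999), a nucleotide kinase, MYL6 (0.999), a myosin light chain, and COPE (0.999), a subunit of the vesicle coat COPI. Such a likeness was common, since 847 genes had a correlation with HRAS above 0.95, and the 6 points share 3 conditions, library depth and the relation to base composition. DTYMK, MYL6 and COPE had log2 fold changes of 0.30, 0.35 and 0.43 under si-circ235-1 and of -0.99, -1.11 and -1.13 under si-circ235-2, next to 0.41 and -1.19 for HRAS.

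Around the cascade, 175 genes in 9 lists were followed, of which 150 were tested. Under si-circ235-1, 6 of these (4%) were called higher and 7 (4.67%) lower, beside 2.24% and 3.64% of all genes tested (20 and 7 once the length and GC trend was removed, 3 and 8 without TMM factors). Under si-circ235-2, 35 (23.3%) were higher and 22 (14.7%) lower, beside 15.7% in each direction (53 and 11 without TMM factors). Between the siRNAs, 39 (26%) were called higher and 27 (18%) lower with si-circ235-2, beside 21.1% and 18.6% (54 and 12 without TMM factors, 36 and 40 with the trend removed). Over all genes the split between the siRNAs was 3047 higher and 2678 lower, 4534 and 1496 without TMM factors, and 2477 and 3346 with the trend removed. Under si-circ235-2 against NC the all-gene split was 3173 and 1294 without TMM factors, with a median of 0.25, and 1615 and 2113 with the trend removed. Under si-circ235-1 these splits were 179 and 529, and 1189 and 780. The counts of single lists below are to be read beside these shifts of all genes.

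Of 14 related small GTPases, 2 rose and 1 fell under si-circ235-1, with a median of 0.30, and 3 rose and 1 fell under si-circ235-2, with a median of 0.27 (0.52 without TMM factors). RIT1, a RAS-like GTPase that also signals to RAF, had 19.5 and 17.5 CPM in NC, 42.4 and 49.3 CPM under si-circ235-1, and 22.3 and 24.9 CPM under si-circ235-2. It rose by 1.31 (log2) under si-circ235-1 (adjusted p = 0.0109). RAP2C, of the RAP branch, rose under both siRNAs, by 1.10 (adjusted p = 0.0151) and 0.83 (adjusted p = 0.0105). RASD2 fell by 1.19 under si-circ235-1 (adjusted p = 0.0451), at a low level of 5.68 to 7.41 CPM in NC and 2.85 to 2.87 CPM under that siRNA, and with the trend removed it was -0.84 and not called. RRAS, a relative of HRAS, fell by 0.99 under si-circ235-2 (adjusted p = 0.00904), and its value with the trend removed was -0.10.

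Upstream of RAS, 6 of 15 exchange factors and adaptors rose and 2 fell under si-circ235-2, with a median of 0.66 (0.29 with the trend removed, 0.93 without TMM factors), against 0 and 1 under si-circ235-1, with a median of -0.10. CRK, an adaptor that links receptors to exchange factors, had 1.12 and 3.06 CPM in NC, 1.19 and 2.18 CPM under si-circ235-1, and 9.09 and 15.4 CPM under si-circ235-2. It met the minimum mean of 5 CPM for a named gene through si-circ235-2 alone, where its log2 fold change was 2.54 (SE 0.47, adjusted p = 0.00392). That value was 2.00 without NC replicate 1 and 3.46 without NC replicate 2. SOS2, an exchange factor that loads RAS with GTP, had 19.3 and 22.4 CPM in NC and 8.53 and 9.60 CPM under si-circ235-1, a fall of 1.20 (adjusted p = 0.0318), and under si-circ235-2 its value was 0.46 (adjusted p = 0.204). The adaptor FRS3 fell by 1.08 under si-circ235-2 (adjusted p = 0.0110), and by 0.55 with the trend removed, where it was not called.

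Of 12 genes for GTPase activating and related proteins, 5 rose and 1 fell under si-circ235-2, with a median of 0.70 (0.37 with the trend removed; 0.95 without TMM factors, where 7 rose and 0 fell), and 0 rose and 1 fell under si-circ235-1, with a median of -0.04. LZTR1, the substrate adaptor of a ubiquitin ligase that degrades RAS proteins, had 77.4 and 69.0 CPM in NC, 32.7 and 27.5 CPM under si-circ235-1, and 69.5 and 64.1 CPM under si-circ235-2. It fell by 1.28 under si-circ235-1 (adjusted p = 0.00910), and this was also called with the trend removed. IQGAP1, a scaffold with a GAP-related domain, rose by 1.35 under si-circ235-2 (adjusted p = 0.00303), from 106 and 144 CPM in NC to 265 and 369 CPM, and by 0.69 with the trend removed. RASA2, which stimulates GTP hydrolysis by RAS, fell by 1.07 there (adjusted p = 0.0490), just inside the threshold. It was not called when TMM factors were left out (-0.82, adjusted p = 0.152), in the fit of 2 conditions alone (adjusted p = 0.0542), and without NC replicate 1 (-1.29, adjusted p = 0.111), NC replicate 2 (-0.83, adjusted p = 0.191) or si-circ235-2 replicate 1 (-0.68, adjusted p = 0.159), and without si-circ235-2 replicate 2 the value was -1.65.

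Among 26 scaffolds and modulators of RAF and MEK, edgeR called 0 under si-circ235-1, where 8 had p under 0.05 before adjustment and DESeq2 called 2, and 2 rose and 5 fell under si-circ235-2. Their medians were 0.28 and 0.07. These counts depended on the fit, since without TMM factors 6 were higher and 3 lower under si-circ235-2 (median 0.32), and with the trend removed edgeR called 3 higher under si-circ235-1. KSR1, a scaffold that holds RAF, MEK and ERK together, had 4.0 and 7.15 CPM in NC and 16.3 and 15.4 CPM under si-circ235-2, a rise of 1.51 (adjusted p = 0.00700). CDC37, the chaperone partner that delivers kinases such as the RAF proteins to HSP90, fell by 1.10 (adjusted p = 0.00915), from 569 and 365 CPM to 242 and 193 CPM. With the trend removed its value was -0.49 (adjusted p = 0.0446).

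All 13 genes of RAS lipid processing were tested, and 1 rose and 5 fell under si-circ235-2, with a median of -0.24, against 1 and 1 under si-circ235-1, with a median of 0.04. Without TMM factors the split under si-circ235-2 turned to 3 higher and 2 lower, with a median of 0.02. PDE6D, which carries farnesylated RAS through the cytoplasm, fell under both siRNAs, by 1.30 (adjusted p = 0.0136) and 0.79 (adjusted p = 0.0211), from 34.2 and 38.1 CPM in NC to 15.7 and 13.8 CPM and to 23.4 and 18.6 CPM. GOLGA7 and ZDHHC9 form the palmitoyl transferase of HRAS and NRAS. GOLGA7 rose by 0.77 under si-circ235-1 (adjusted p = 0.0452) with a value of -0.06 under si-circ235-2. Without TMM factors GOLGA7 had 0.69 under si-circ235-1 and was not called (adjusted p = 0.0905 from edgeR). ZDHHC9 rose by 0.61 under si-circ235-2 (adjusted p = 0.0371; 0.07 with the trend removed) with -0.23 under si-circ235-1. LYPLA2, a thioesterase that can remove palmitate, fell by 1.36 under si-circ235-2 (adjusted p = 0.00401), and by 0.69 with the trend removed.

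In the other MAP kinase arms, 2 of 20 genes rose and 0 fell under si-circ235-1, with a median of -0.05, and 4 rose and 3 fell under si-circ235-2, with a median of 0.14. Under si-circ235-2 the split was 8 higher and 1 lower without TMM factors (median 0.39) and 3 higher and 4 lower with the trend removed (median -0.03). MAPK6 (ERK3), an atypical relative of MAPK3, had 12.1 and 14.1 CPM in NC, 46.8 and 56.3 CPM under si-circ235-1, and 17.3 and 39.2 CPM under si-circ235-2. It rose by 1.98 (adjusted p = 0.0131) and 1.12 (adjusted p = 0.0266). In the fit of 2 conditions alone the value under si-circ235-2 was 1.11 and not called (adjusted p = 0.0566 from edgeR). The value under si-circ235-2 rested on replicate 2 of that siRNA, as it was 0.40 (adjusted p = 0.314) without it and 1.58 without replicate 1. The p38 kinase gene MAPK12 fell by 1.14 under si-circ235-2 (adjusted p = 0.00590).

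Downstream of ERK, 0 of 17 genes for ERK substrates rose and 3 fell under si-circ235-1, and 4 rose and 1 fell under si-circ235-2, with medians of 0.09 and 0.43. Under si-circ235-1 the split became 2 higher and 2 lower with the trend removed, and under si-circ235-2 it became 9 higher and 1 lower without TMM factors. ETS1, a transcription factor activated by ERK, had 61.8 and 88.7 CPM in NC, 108 and 104 CPM under si-circ235-1, and 208 and 216 CPM under si-circ235-2. It rose by 1.49 under si-circ235-2 (adjusted p = 0.00182). CIC, a repressor that ERK signalling inactivates, fell by 1.04 under si-circ235-1 (adjusted p = 0.0336), and BAD, a pro-apoptotic protein, fell by 1.61 under si-circ235-2 (adjusted p = 0.00373). With the trend removed BAD was at -0.59 and not called.

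Among 18 genes for other RAS effectors, 6 rose and 3 fell under si-circ235-2, with a median of 0.28. The split was 4 and 2 with the trend removed (median 0.09) and 6 and 1 without TMM factors (median 0.52). Under si-circ235-1 edgeR and DESeq2 each called 0 of them (8 had an unadjusted p under 0.05 in each), with a median of -0.14, and with the trend removed edgeR called 2 higher. PIK3CD, a catalytic PI3 kinase subunit, had 17.9 and 18.8 CPM in NC, 11.8 and 11.3 CPM under si-circ235-1, and 50.6 and 58.0 CPM under si-circ235-2, a rise of 1.56 (adjusted p = 0.00179). RASSF7, of the RAS association domain family, fell by 1.26 there (adjusted p = 0.00490) and had -0.27 with the trend removed.

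Of 15 genes known to be induced by ERK activity, 1 rose and 0 fell under si-circ235-1, with a median of 0.32, and 4 rose and 1 fell under si-circ235-2, with a median of 0.07. With the trend removed, 5 were higher and 0 lower under si-circ235-1 (median 0.50) and 2 higher and 2 lower under si-circ235-2 (median -0.13), and without TMM factors 0 were called under si-circ235-1 (2 at an unadjusted p under 0.05). The split under si-circ235-2 without TMM factors was 4 higher and 0 lower (median 0.31). ETV5, a transcription factor gene that reports ERK output, rose by 0.72 under si-circ235-1 (adjusted p = 0.0427), from 73.2 and 83.4 CPM in NC to 121 and 136 CPM, and had 76.8 and 71.8 CPM under si-circ235-2. IER3 rose by 0.94 under si-circ235-2 (adjusted p = 0.00736), and by 1.48 with the trend removed. FOSL1, the gene of an AP-1 subunit, fell by 0.77 there (adjusted p = 0.0192), from 298 and 255 CPM to 182 and 142 CPM, and its value with the trend removed was -0.19. Single libraries weighed on these calls as well. Of the 9 list genes named for si-circ235-1, edgeR called 0 without NC replicate 1 or without si-circ235-1 replicate 2 (9 with an unadjusted p under 0.05 in each), 1 (LZTR1) without NC replicate 2 and 5 without si-circ235-1 replicate 1. With all 6 libraries edgeR and DESeq2 each called all 9 (7 by edgeR without TMM factors), and DESeq2 was not run with a library left out. Of the 18 named for si-circ235-2, 6 were called without NC replicate 1 (CRK, IQGAP1, LYPLA2, BAD, ETS1 and PIK3CD) and 15 to 18 without any other library.

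Outside of BRAF and MAP2K1, annotated neighbours added few reads. ARAF shares 23 nucleotides of exon with SYN1, which had 0 counts in all libraries, and its pseudogenes ARAFP1, ARAFP2 and ARAFP3 had 0 counts. The pseudogenes BRAFP1 and MAP2K1P1 had at most 3 and 2 counts in any library. No 50-nucleotide word of the longest ARAF or MAPK3 transcript occurred in another gene, and 3.23% of those of MAP2K2 and 9.97% of those of MAP2K1 did.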

How the data were processed

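The values deposited by the authors were raw counts per gene, in whole numbers, from 6 libraries of oligo dT enriched RNA sequenced without strand information. The labels name FastQC, cutadapt, STAR and hg38, with no versions (counting tool and annotation: not given in the sources used here). Columns were assigned to libraries by their names. Poly(A) enrichment does not retain circular RNA, and unstranded counting cannot separate genes that overlap. Libraries held 15373992 to 19912893 counts. For genes at these levels, 2 libraries a condition limit precision more than counting error does.

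GENCODE release 29 (GRCh38) held 99.5% of the identifiers, and from it coordinates, lengths, GC content and coding sequences were taken. The tests were run with edgeR 4.0.16 in R 4.3.3 (low counts filtered by filterByExpr, TMM factors, quasi-likelihood test on all 6 libraries with 1 mean per condition, Benjamini-Hochberg adjustment over 14415 genes, threshold 0.05). Levels are CPM on TMM-adjusted library sizes, and log2 CPM used a prior count of 2. Alternatives were DESeq2 1.42.0 (Wald test, independent filtering off), library size without TMM factors, all genes unfiltered, the 4 libraries of 2 conditions fitted alone, a block for the replicate number, a trend over log2 length and GC content removed as an offset (splines with 5 degrees of freedom), other transcript lengths and each library left out.

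The genes, the pathway lists and the tests were chosen with earlier results of these data known. Pathway genes named in the text are, in each list and each comparison with NC, the called genes with the largest fall and the largest rise among those with a mean of at least 5 CPM. For HRAS, the 3 most correlated protein-coding genes of that level were named. RAP2C and PDE6D are also described in a comparison for which the rule did not choose them, as are values set beside a named gene. Some genes of these families are not reported here.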

Additional observations from a re-analysis of the deposited data

How the results depend on the processing

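DESeq2, no filter on low counts, fits of 2 conditions alone and the replicate block changed the call of none of the 7 genes in the 3 comparisons of conditions, with 1, 5 and 3 genes called under each. In the pooled comparison, where edgeR called 0 genes, DESeq2 called 1 of the 7 and 158 of all genes, and 4 genes were called with no filter. Whether same-numbered libraries share a batch was not tested, and 2 libraries a condition cannot decide it. The deviations of same-numbered libraries correlated at -0.0943 for NC with si-circ235-1, 0.149 for NC with si-circ235-2 and 0.139 between the siRNAs. With the replicate block, all-gene calls went from 847 to 937, from 4530 to 4750 and from 5725 to 6043.

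Under si-circ235-1 the number of the 7 called was 0 without TMM factors, 3 with the length and GC trend removed and 2 with that trend removed and the replicate block. All-gene calls there were 1448 with DESeq2, 1678 with no filter, 1969 with the trend removed, 1294 with the trend removed and the block, and 1642 with 2 conditions alone, and 27 list genes were called with the trend removed. Under si-circ235-2 the number of the 7 called was 3 with the trend removed, with and without the block, and 4 without TMM factors.

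With the trend removed, and with the block added, the sign changed for genes that were not called: under si-circ235-1 ARAF (0.073 and 0.075) and MAPK3 (0.039 and 0.044), under si-circ235-2 BRAF (-0.16 and -0.16), between the siRNAs BRAF (-0.26 and -0.26) and MAP2K1 (-0.32 and -0.30), and in the pooled comparison HRAS (0.30 and 0.29), BRAF (-0.028 and -0.025) and MAP2K2 (0.30 and 0.30).

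With each library left out in turn, 0 to 1 of the 7 were called under si-circ235-1 and 1 to 5 under si-circ235-2, and all-gene calls ranged from 0 to 1482, from 769 to 4240 and, between the siRNAs, from 2817 to 5558. Log2 fold changes of genes that changed sign ranged from -0.53 to 0.0145 for MAPK3 under si-circ235-1, -0.0014 to 0.61 for BRAF under si-circ235-2, -0.23 to 0.38 for BRAF and -0.087 to 0.29 for MAP2K1 between the siRNAs, and, in the pooled comparison, -0.59 to 0.28 for HRAS and -0.36 to 0.28 for MAP2K2. Under si-circ235-1, edgeR, the tool run with libraries left out, called 0 of the 7 without any 1 of the NC or si-circ235-1 libraries (1 to 3 at an unadjusted p under 0.05), and 0 of all genes without si-circ235-1 replicate 2, where 2110 genes had p under 0.05 before adjustment.

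With other transcript lengths the level ratios scale by a constant. In NC, si-circ235-1 and si-circ235-2, ARAF to BRAF was 47.9, 34.6 and 21.5 with the union of exons and 6.71, 4.84 and 3.02 with the shortest coding transcript. MAP2K2 to MAP2K1 was 16.1, 19.5 and 5.77 with the union, 44.0, 53.4 and 15.8 with the longest coding transcript, and 26.4 and 7.83 under the siRNAs with the shortest. HRAS to NRAS was 4.16 under si-circ235-1 with the union, and 8.62 and 2.41 under the siRNAs with the shortest. Causes of these differences other than the settings' own construction were not tested.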
